A study of Solanum lycopersicum with 18 samples.

Results

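Transcripts of 5 genes that the array annotation links to glutamate and GABA (gamma-aminobutyric acid) were followed through fruit ripening in tomato. The 5 are gad2 and yfe37, both listed under names of glutamate decarboxylase, the GABA transaminase gene GABA-TP3, the glutamate dehydrogenase gene gdh1, and the plastid glutamine synthetase gene GS2. Each was read by 1 probe set (a group of short probes for 1 transcript), so they are 5 of 10209 probe sets on the array. The rows of gad2 and GABA-TP3 were taken by probe set identifier and the other 3 by the gene the array annotation assigns, and all 5 passed the filter on dim probe sets.

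The samples were pericarp, the fleshy fruit wall, of the variety Pusa Ruby. Wild-type fruit and fruit of rin, a ripening-inhibitor mutant of the MADS-box gene RIN, were compared at 35, 40 and 45 days (labelled as days after planting), with 3 arrays in each of 6 groups. For wild type these ages are labelled immature green, breaker and red-ripe, and the rin groups carry the same stage names by age although rin fruit does not ripen normally. The titles call the arrays biological replicates of plants 1 to 3. They also carry a second numbered code of unstated meaning, which repeats across ages for most rin arrays and for 5 of 9 wild-type arrays, so ages may share plants. The notes on growth and treatment name no agent and speak of seedlings and shoots, not of fruit, whereas the fruit marker PG2, a polygalacturonase gene of ripening, read between 17710 and 25060 on the wild-type arrays at 40 and 45 days.

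Glutamate is the central amino acid of nitrogen metabolism, and it builds up in tomato fruit as it ripens, where it carries the savoury taste. Green fruit is instead rich in GABA, which glutamate decarboxylase makes from glutamate and which GABA transaminases break down as ripening starts. Glutamine synthetase fixes ammonium onto glutamate, and glutamate dehydrogenase joins glutamate to 2-oxoglutarate by adding or removing ammonium.

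The names of both decarboxylase entries are doubtful. The gad2 record in RefSeq (assembly SLM_r2.1) carries the synonym GAME11, a dioxygenase gene of steroidal glycoalkaloid synthesis, the pathway of the bitter defence compounds of green tomato. Its nearest protein-coding neighbours there include GAME2 on one side and GAME6, GAME17, GAME1 and GAME18 on the other. The same table has a separate record named GAD2, which no probe set of the annotation is linked to. It also has a separate record named GAD3, distinct from yfe37, which has GAD3 as a synonym, and neither that record nor those for GAD1 and GAD4 is linked to a probe set. The 2 genes are therefore called gad2 and yfe37 here, as the annotation lists them, and their enzyme activity is not assumed. The names of GABA-TP3, gdh1 and GS2 have no such conflict, and GABA-TP3 lies beside the glycoalkaloid gene GAME4.

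Some array-wide values differed little between the 18 arrays. Their 2% trimmed means lay between 327.6 and 348.2, and between 4720 and 4878 probe sets per array exceeded a signal of 100. RIN was below the 30th percentile of its array, called dim from here on, on all 9 rin arrays and on no wild-type array. That percentile lay between 11.3 and 15.34. It was lowest on the wild-type arrays at 45 days, at 11.3, 11.5 and 11.77, against 13.09, 14.85 and 14.97 on the rin arrays at 45 days. Replicate 2 of wild type at 35 days and replicate 1 of rin at 40 days stood apart for some of the 5 genes, and values without them are given where they matter. Across probe sets, log2 signals of replicates correlated between 0.867 and 0.991. The lowest value was for replicates 1 and 2 of rin at 35 days, and the highest for replicates 2 and 3 of rin at 45 days.

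All 5 genes fell in wild type between 35 and 45 days, when 19% of all tested probe sets were called lower. The fall of gdh1 was called in only 7 of 16 alternative settings. At 45 days 4 of the 5 genes were higher in rin than in wild type, when 13.2% of all tested probe sets were called higher. GABA-TP3 was measured best, with signals far above the dim range on all 18 arrays. gad2, yfe37, gdh1 and GS2 were dim on all 3 wild-type arrays at 45 days. Differences are between group means of log2 signal, tested with limma, and a gene is said to have risen, fallen or been called where its p-value, adjusted over all 7714 probe sets tested, was under 0.05. Intervals are 95% intervals of the log2 difference. Pericarp is a mixed tissue, and fewer cells of a type and less RNA per cell cannot be told apart in these signals.

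**Figure D1:**
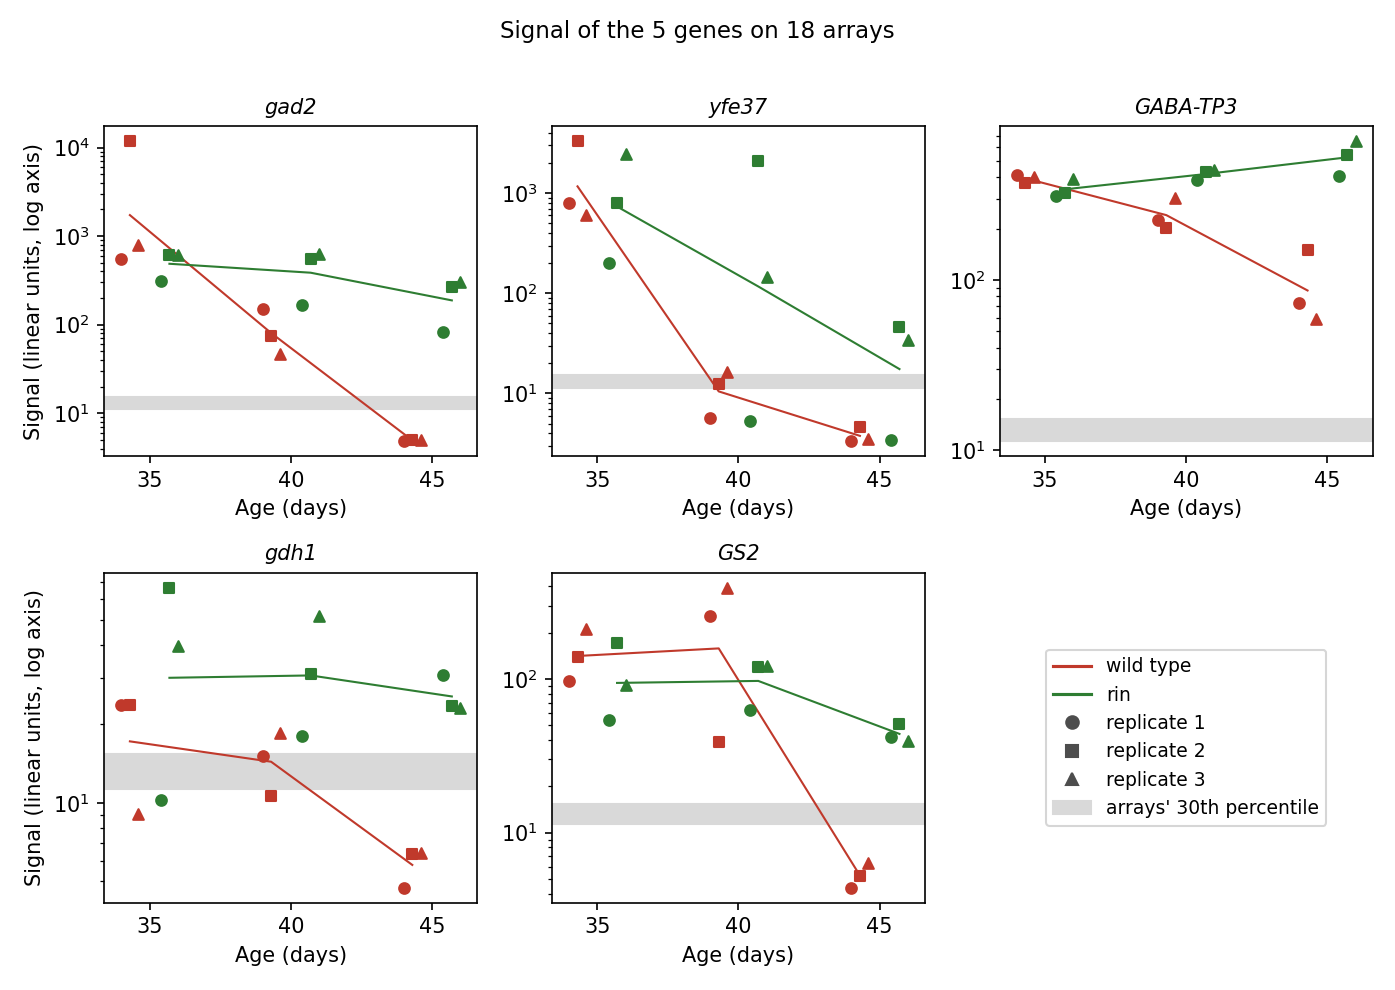
Signal of each gene on each array (log axis, linear signal units) against age in days, in red for wild type and green for rin, with 1 symbol per replicate number, lines through the geometric means, and the arrays' 30th percentiles (11.3 to 15.34) as a grey band. Red points of gad2, yfe37, gdh1 and GS2 lie below the band at 45 days, whereas GABA-TP3 lies above it everywhere and parts by genotype with age.

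GABA-TP3 encodes the plastid form of the GABA transaminases, which pass the amino group of GABA to a keto acid. In wild type its signals were 412.9, 371.3 and 403.8 at 35 days, 226.4, 201.8 and 303.5 at 40 days, and 73.68, 150.5 and 58.85 at 45 days. In rin they were 309.6, 324.7 and 392.8 at 35 days, 387.2, 429.2 and 442.6 at 40 days, and 406, 545.3 and 652.9 at 45 days. The wild-type arrays went down at each age with no overlap between ages, whereas the means of the rin groups went up.

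The mean GABA-TP3 signal at 45 days was 94.33 ± 49.2 for wild type and 534.8 ± 124 for rin (SD, n = 3), a 6.05-fold difference (log2 difference 2.60 ± 0.29 SE, adjusted p = 1.42e-05). This difference was called in all 18 alternative settings, between 2.21 and 2.99 on the log2 scale. At 40 days rin was 1.74-fold higher without overlap of the arrays, at 419.7 ± 28.9 against 243.9 ± 53.0, and just missed the threshold (adjusted p = 0.0546, log2 difference 0.80, 95% interval 0.18 to 1.42). It passed without replicate 3 of wild type (adjusted p = 0.045, 1.96-fold). At 35 days the arrays overlapped (log2 difference -0.22, interval -0.84 to 0.40, adjusted p = 0.904).

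From 35 to 45 days GABA-TP3 fell 4.56-fold in wild type (adjusted p = 3.68e-05), of which 2.77-fold came after 40 days (adjusted p = 0.00559). The later step was not called in a fit of only the 6 arrays compared (adjusted p = 0.0988). In rin its change from 35 to 45 days was 0.62 on the log2 scale (interval 0.004 to 1.245, adjusted p = 0.167), although the 3 arrays at 45 days lay above the 3 at 35 days. The change with age differed between the genotypes by 2.81 ± 0.41 (SE) on the log2 scale (adjusted p = 0.000491). Ordered by mean signal, rin at 45 days came first, then rin at 40 days, wild type at 35 days, rin at 35 days, wild type at 40 days and wild type at 45 days. The ranges of neighbours overlapped among the first 4 of these groups, and did not overlap below them.

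The entry gad2 had the widest range of the 5. In wild type its signals were 546.3, 11780 and 799 at 35 days, 150.3, 74.83 and 46.63 at 40 days, and 4.844, 4.987 and 5.036 at 45 days. In rin they were 312.3, 609.4 and 607.7 at 35 days, 165.8, 549.7 and 632 at 40 days, and 82.55, 266.4 and 302.5 at 45 days. In wild type no 2 ages overlapped, and replicate 2 at 35 days was 21.6 times replicate 1 and 14.7 times replicate 3. In rin the transcript stayed well above the dim range on every array.

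The gad2 signal of rin at 45 days, 217.2 ± 118 (SD, n = 3), was at least 16.3 times that of wild type, 4.956 ± 0.0995, where all 3 arrays were dim (adjusted p = 0.000588). The words "at least" mark a fold for which each dim signal of the dimmer group was raised to its array's 30th percentile, and those of the brighter group were left as measured. On the wild-type arrays at 45 days that percentile was lower than on every other array, and bounds at other percentiles were not computed. The adjusted p beside such a fold comes from the signals as measured and does not test the bound. Without replicate 1 of rin the bound was 24.6-fold. At 40 days the rin arrays lay above the wild-type arrays, with the lowest at 165.8 against a highest of 150.3. The 4.79-fold difference was not called (log2 difference 2.26, interval 0.33 to 4.19, adjusted p = 0.0782), but was without replicate 1 of rin (7.31-fold, adjusted p = 0.044). At 35 days wild type averaged 4374 ± 6413 and rin 509.8 ± 171, and the groups overlapped (adjusted p = 0.628).

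Within wild type gad2 fell 21.4-fold from 35 to 40 days (adjusted p = 0.00226) and at least 149.8-fold from 35 to 45 days (adjusted p = 5.03e-06). Without replicate 2 at 35 days these folds were 8.19 and at least 57.3, and without replicate 1 at 35 days 38.0 and at least 266. The step from 40 to 45 days was at least 7.0-fold (adjusted p = 0.0125). Its call was lost when dim signals were raised to the percentile (adjusted p = 0.0701). It was also lost with 32 added to every signal before log2 (-1.64, adjusted p = 0.266). In rin the change from 35 to 45 days was -1.37 on the log2 scale (interval -3.31 to 0.56, adjusted p = 0.337). For the change from 35 to 40 days the difference between genotypes was 4.08 ± 1.28 (SE) on the log2 scale and not called (adjusted p = 0.0583), but was without replicate 1 of wild type at 35 days (4.91, adjusted p = 0.0337) or replicate 1 of rin at 40 days (4.69, adjusted p = 0.0334). For the change from 35 to 45 days it was 7.07 ± 1.28 (SE) on the log2 scale (adjusted p = 0.00238), or by 5.69 without replicate 2 of wild type at 35 days, 7.90 without its replicate 1 and 7.66 without replicate 1 of rin at 45 days. With dim signals raised it was 5.85 (adjusted p = 0.008).

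The entry yfe37 fell in both genotypes between 35 and 45 days, and in wild type it was dim on 2 of 3 arrays by 40 days. In wild type its signals were 801.3, 3304 and 604.6 at 35 days, 5.654, 12.42 and 16.45 at 40 days, and 3.341, 4.608 and 3.499 at 45 days. In rin they were 203.1, 794.4 and 2466 at 35 days, 5.267, 2106 and 144.8 at 40 days, and 3.421, 46.34 and 34 at 45 days. The 3 rin arrays at 40 days spanned from dim to a level within the range at 35 days, so that the mean of 752.2 ± 1175 (SD, n = 3) describes none of them.

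In wild type yfe37 fell at least 83.5-fold from 35 to 40 days (adjusted p = 0.00526) and at least 102-fold from 35 to 45 days (adjusted p = 0.000809). Without replicate 2 at 35 days these bounds were 49.7 and 60.4. In rin the fall from 35 to 45 days was at least 26.8-fold (adjusted p = 0.0441). That call was fragile. It was lost without replicate 2 or 3 at 35 days (at least 25.8-fold and 14.7-fold, adjusted p = 0.131 and 0.146) and without replicate 1, 2 or 3 at 45 days (at least 18.5-fold, 34.9-fold and 29.9-fold, adjusted p between 0.0722 and 0.131). It was kept without replicate 1 at 35 days, with a fall of at least 51.0-fold. The difference between genotypes in that change, 2.88 on the log2 scale, was not called (interval -1.94 to 7.71, adjusted p = 0.433).

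Between genotypes yfe37 was called at no age. At 40 days rin stood higher by 3.48 on the log2 scale (interval 0.07 to 6.89, adjusted p = 0.122), with overlapping arrays. Without replicate 1 of rin it was at least 39.4-fold higher (adjusted p = 0.00498). The change from 35 to 40 days then differed between the genotypes by 6.39 on the log2 scale (adjusted p = 0.0274, against 0.263 with that array). That difference in change was called in only this 1 of 23 alternative settings, and not without both arrays that stood apart. At 45 days the log2 difference was 2.21 (interval -1.20 to 5.63, adjusted p = 0.329) with all wild-type arrays and 1 rin array dim.

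GS2 encodes the glutamine synthetase of the plastid, which in leaves takes up the ammonium set free by nitrate reduction and photorespiration. In wild type its signals were 96.56, 138.3 and 209.7 at 35 days, 257, 38.95 and 392.5 at 40 days, and 4.387, 5.243 and 6.326 at 45 days. In rin they were 53.82, 170.6 and 90.84 at 35 days, 62.86, 120.1 and 120.8 at 40 days, and 42.05, 51.08 and 39.26 at 45 days. The wild-type ranges at 35 and 40 days overlapped and all 3 arrays were dim in red-ripe fruit, whereas no rin array was dim.

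GS2 read 44.13 ± 6.18 in rin and 5.319 ± 0.972 in wild type at 45 days (SD, n = 3), a difference of at least 3.81-fold (adjusted p = 0.00295). With 32 added to every signal before log2 the difference was 1.03 and not called (adjusted p = 0.138). At 40 days the groups overlapped and the log2 difference was -0.70 (interval -2.10 to 0.70, adjusted p = 0.452). Without the low replicate 2 of wild type, GS2 was called 3.27-fold lower in rin (adjusted p = 0.0162). From 40 to 45 days it fell at least 13.7-fold in wild type (adjusted p = 0.000244), or at least 27.6-fold and at least 8.68-fold without replicates 2 and 3 at 40 days. In rin that step was -1.15 on the log2 scale without overlap of the arrays (interval -2.54 to 0.25, adjusted p = 0.537).

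The step from 40 to 45 days differed between the genotypes for GS2 by 3.76 ± 0.93 (SE) on the log2 scale (adjusted p = 0.0368). That call was lost in 9 of the 12 fits that left out 1 array, with adjusted p up to 0.0941. The arrays whose loss ended it were replicates 1 and 3 of both genotypes at 40 days, replicates 1 and 2 of wild type at 45 days, and each of the 3 rin arrays at 45 days. Over 35 to 45 days the genotype difference was 3.64 ± 0.93 (adjusted p = 0.0177). It was kept without each of the 12 arrays in turn, but lost with dim signals raised to the percentile (2.51, adjusted p = 0.0858) and with 32 added before log2 (1.46, adjusted p = 0.182).

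The gdh1 transcript encodes glutamate dehydrogenase, a mitochondrial enzyme. Its probe set was close to the dim range on most arrays. Signals in wild type were 23.67, 23.62 and 9.046 at 35 days, 15.12, 10.59 and 18.45 at 40 days, and 4.735, 6.353 and 6.429 at 45 days. In rin they were 10.24, 66.49 and 39.82 at 35 days, 18.07, 30.96 and 51.58 at 40 days, and 30.72, 23.36 and 23.09 at 45 days. The groups separated at 45 days alone, where every wild-type array was dim and no rin array was.

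The gdh1 means at 45 days were 25.72 ± 4.33 for rin and 5.839 ± 0.957 for wild type (SD, n = 3), which differ at least 2.21-fold (adjusted p = 0.0126). It was not called with dim signals raised to the percentile (1.15 on the log2 scale, adjusted p = 0.0757) or with 32 added before log2 (0.61, adjusted p = 0.0753). In wild type it fell at least 1.49-fold from 35 to 45 days (adjusted p = 0.0404), a call that was lost without replicate 1 or 2 at 35 days (adjusted p = 0.132 and 0.126) and without replicate 1, 2 or 3 at 45 days (adjusted p = 0.115, 0.072 and 0.0667). It was also lost with median centring (adjusted p = 0.0511), with 32 added before log2 (-0.41, adjusted p = 0.189) and with dim signals of both groups raised (-0.81, adjusted p = 0.171), and was kept in 7 of 16 alternatives. In rin the change from 35 to 45 days was -0.24 on the log2 scale (interval -1.48 to 1.00, adjusted p = 0.827), and the genotype difference in that change was 1.33 (interval -0.42 to 3.08, adjusted p = 0.307).

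Counted together, limma called none of the 5 genes between genotypes at 35 days, with 0 at an unadjusted p under 0.05, when 0.337% of the 7714 tested probe sets were called (0.143% higher and 0.194% lower in rin). At 40 days it called 0 of 5, with 3 at an unadjusted p under 0.05, and 26% of all probe sets (15.2% higher and 10.8% lower). The median log2 difference of the 5 genes was 1.10 there, against 0.07 over all tested probe sets. At 45 days 4 of 5 were higher in rin and none lower, when 28.2% of all probe sets were called (13.2% higher and 15% lower). Their median difference was 2.60, against -0.12 over all.

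**Figure D2:**
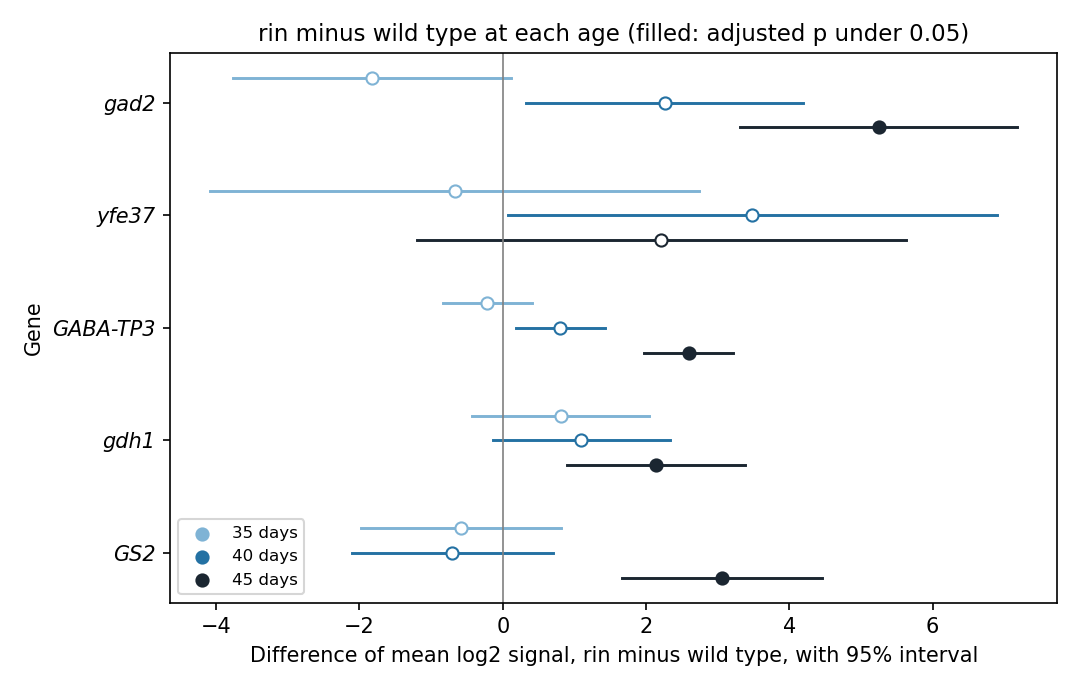
Difference in mean log2 signal between rin and wild type for each gene at 35, 40 and 45 days, with its 95% interval from the model, where filled points have an adjusted p under 0.05. No point is filled at 35 or 40 days, and those of gad2, GABA-TP3, gdh1 and GS2 are filled at 45 days, at 5.25, 2.60, 2.14 and 3.06.

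In wild type gad2 and yfe37, 2 of the 5 genes, were lower at 40 than at 35 days, when 30.9% of all probe sets were called (14.5% higher and 16.5% lower). From 40 to 45 days 3 of 5 were lower (gad2, GABA-TP3 and GS2), when 8.31% of all probe sets were called (3.56% higher and 4.74% lower). Over the whole span from 35 to 45 days all 5 were lower, when 42.6% of all probe sets were called (23.7% higher and 19% lower).

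In rin limma called 0 of 5 genes from 35 to 40 days and 0 of 5 from 40 to 45 days, with 0 in each step at an unadjusted p under 0.05. In the first step 0.0259% of all probe sets were called (0% higher and 0.0259% lower), and in the second 0.363% (0.169% higher and 0.194% lower). These shares hung on single arrays. The first count went from 2 to 646 probe sets without replicate 1 of rin at 35 days, still with 0 of the 5 genes. The second went from 28 to 292 without replicate 1 of rin at 40 days. From 35 to 45 days yfe37 was called lower, 1 of 5, when 11.3% of all probe sets were called (6.02% higher and 5.3% lower). Without replicate 1 of rin at 40 days yfe37 was also lower at 45 than at 40 days (adjusted p = 0.0451, at least 20.1-fold).

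The change from 35 to 40 days differed between genotypes for 0 of 5 genes, with 2 at an unadjusted p under 0.05, when 9.37% of all probe sets were called (5.54% positive and 3.84% negative, where positive means that the change in rin was the higher one). That from 40 to 45 days differed for 2 of 5, both positive, when 3.81% were called (2.22% positive and 1.59% negative). That from 35 to 45 days differed for 3 of 5, all positive, when 13.2% were called (7.22% positive and 5.98% negative).

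**Figure D3:**
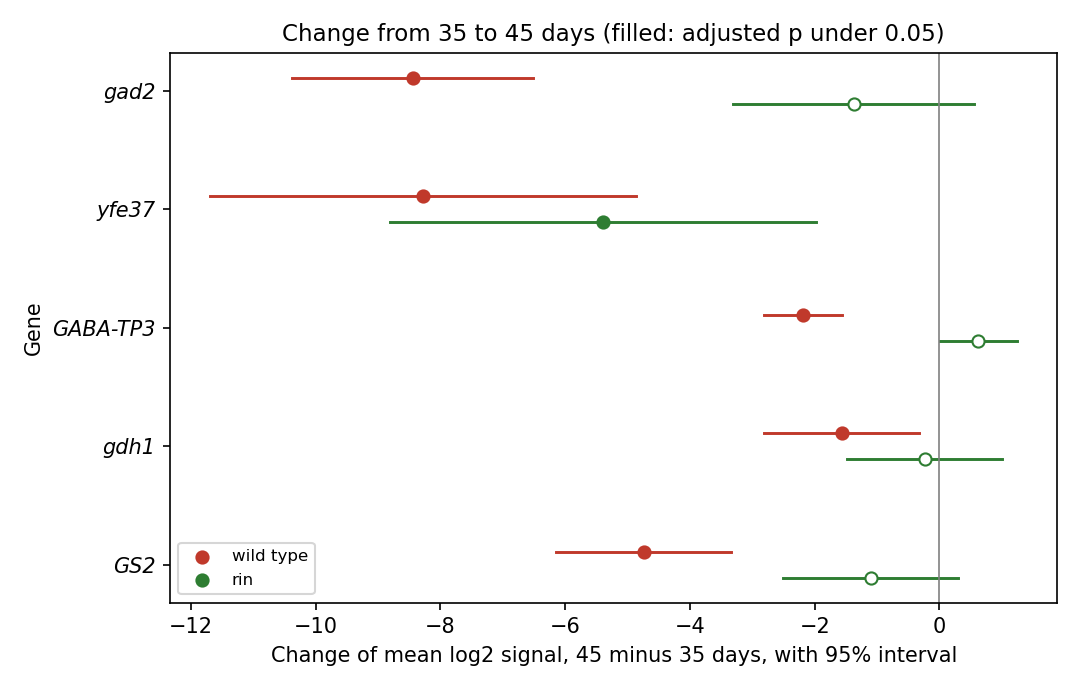
Change in mean log2 signal from 35 to 45 days for each gene in wild type (red) and rin (green), with its 95% interval, where filled points have an adjusted p under 0.05. All 5 wild-type points are filled and below 0, from -8.44 for gad2 to -1.57 for gdh1, whereas in rin yfe37 alone is filled, at -5.39.

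Chloroplast genes were set beside the plastid genes GS2 and GABA-TP3. Of 8 named genes for chlorophyll-binding and photosystem proteins, 3 were higher in rin at 45 days and none lower. Of all tested probe sets 13.2% were called higher and 15% lower there. In wild type 5 of the 8 were lower at 45 than at 35 days, when 19% of all tested probe sets were called lower. The summed signal of the 8 genes lay between 14821 and 19397 in wild type at 35 days, between 17299 and 21645 at 40 days and between 9995 and 12965 at 45 days. In rin it lay between 11155 and 16424, between 13967 and 14359, and between 13502 and 16327 at those ages. CAB5 and CAB6A were dim on all 3 wild-type arrays at 45 days. The part of this difference in the values of GS2 and GABA-TP3 was not tested. Of 2 cuticle genes set beside all 5, the lipid transfer protein gene ltpg1 read between 28.2 and 2113 in wild type at 45 days and between 6464 and 15210 in the other groups, and TSW12 between 18.58 and 90.94 against 9.058 to 5255. Their part was not tested. The log2 ratio of 3' to 5' signals of 3 control transcripts, a measure of RNA quality, was between 0.78 and 1.35 on the wild-type arrays, 0.39 and 0.88 on rin arrays at 40 and 45 days, and 0.61 and 2.33 at 35 days, and its part was not tested either.

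The other genes of glutamate and linked nitrogen metabolism were taken from a list matched by symbol and synonym. It had 9 genes on the array, of which PRO1 was dim throughout and 8 were tested. In rin 2 of 8 were higher and 1 lower at 40 days, when 26% of all probe sets were called, and also 2 higher and 1 lower at 45 days, when 28.2% were. In wild type 1 was higher and 3 were lower at 40 than at 35 days, when 30.9% of all probe sets were called.

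GSH1, which encodes the enzyme that joins glutamate to cysteine in the first step of glutathione synthesis, was called lower in rin at 40 and 45 days. In wild type its signals were 599, 669.6 and 892.2 at 35 days, 6338, 3185 and 5270 at 40 days, and 6173, 5258 and 5144 at 45 days. In rin they were 722.1, 606.2 and 539.5, then 1632, 717.1 and 471.5, then 2627, 1217 and 1667. Wild-type fruit at 40 and 45 days thus lay above every other array.

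GSH1 rose 6.67-fold in wild type from 35 to 40 days (adjusted p = 0.000151). It was 5.78-fold lower in rin at 40 days (adjusted p = 0.000307) and 3.15-fold lower at 45 days (adjusted p = 0.00501). In rin it rose 2.83-fold from 35 to 45 days (adjusted p = 0.0248), a call lost without replicates 2 and 3 at 35 days and without replicates 1 and 3 at 45 days in turn (adjusted p up to 0.0812). The change from 35 to 40 days differed between genotypes by -2.33 ± 0.54 (SE) on the log2 scale (adjusted p = 0.0159). GSH2, for the second step of glutathione synthesis, fell 1.69-fold in wild type from 35 to 40 days (adjusted p = 0.0493), which was lost without any one of 5 of those 6 arrays (adjusted p up to 0.211).

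The remaining GABA transaminase genes differed from GABA-TP3. GABA-TP1, for the mitochondrial form, was called in none of the 12 comparisons, and its group means ran from 961.6 ± 301 (SD, n = 3) in rin at 35 days to 1947 ± 968 in rin at 45 days. GABA-TP2, which carries the synonym GAME12 of a glycoalkaloid gene and lies on the far side of GAME4 from GABA-TP3, had signals of 67.58, 934.1 and 42.81 in wild type at 35 days and was dim on all 6 later wild-type arrays. In rin it read 92.42, 109.3 and 71.46 at 35 days, 35.27, 42.57 and 120.3 at 40 days, and 8.299, 11.41 and 24.7 at 45 days.

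GABA-TP2 fell at least 10.6-fold in wild type from 35 to 40 days (adjusted p = 0.00235), or at least 4.09-fold without replicate 2 and at least 19.1-fold without replicate 3 at 35 days. At 40 days it was at least 4.30-fold higher in rin (adjusted p = 0.0253), a call that ended when replicate 1 or 3 of wild type or replicate 3 of rin was left out (adjusted p = 0.0602, 0.0719 and 0.117). In rin it fell at least 5.32-fold from 35 to 45 days (adjusted p = 0.0467), which was lost without each of those 6 arrays in turn (adjusted p between 0.0573 and 0.151).

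The arginase genes ARG1 and ARG2 were higher in rin at 45 days, by 1.94-fold (adjusted p = 0.0212) and, for the brightest of its probe sets, 8.82-fold (adjusted p = 0.0093). The call of ARG1 was lost without replicate 1 of wild type (adjusted p = 0.103) or of rin (adjusted p = 0.0801). The brightest probe set of ARG2 was also 32.4-fold higher in rin at 40 days, and 63.7-fold higher without replicate 1 of rin. It read 18.69 to 21.86 on all 6 wild-type arrays at 40 and 45 days, close above the dim limit. A second probe set of ARG2 was dim on those 6 arrays, and was at least 13.7-fold higher in rin at 40 days (adjusted p = 0.000651) and at least 4.73-fold higher at 45 days (adjusted p = 0.00731). Its bound at 40 days was 29.4 without replicate 1 and 8.54 without replicate 2 of rin. In wild type it fell at least 22.4-fold from 35 to 40 days, or at least 36.2-fold and at least 10.1-fold without replicates 1 and 2 at 35 days. A further probe set of ARG2 was dim throughout. The gene listed as gts1 also had a probe set that was dim throughout. Its other probe set was dim on most arrays and fell at least 4.57-fold in rin from 35 to 45 days (adjusted p = 0.0204). Without replicates 1 and 3 at 35 days its bound was 2.92 and 7.96, and it lost its call without replicate 2 at 35 days (adjusted p = 0.076) and without replicates 2 and 3 at 45 days (adjusted p = 0.0644 and 0.0621). PRO2, a proline synthesis gene that uses glutamate, was not called in any of the 12 comparisons, but rose 1.77-fold in rin from 35 to 45 days without replicate 1 at 35 days (adjusted p = 0.0276).

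**Figure D4:**
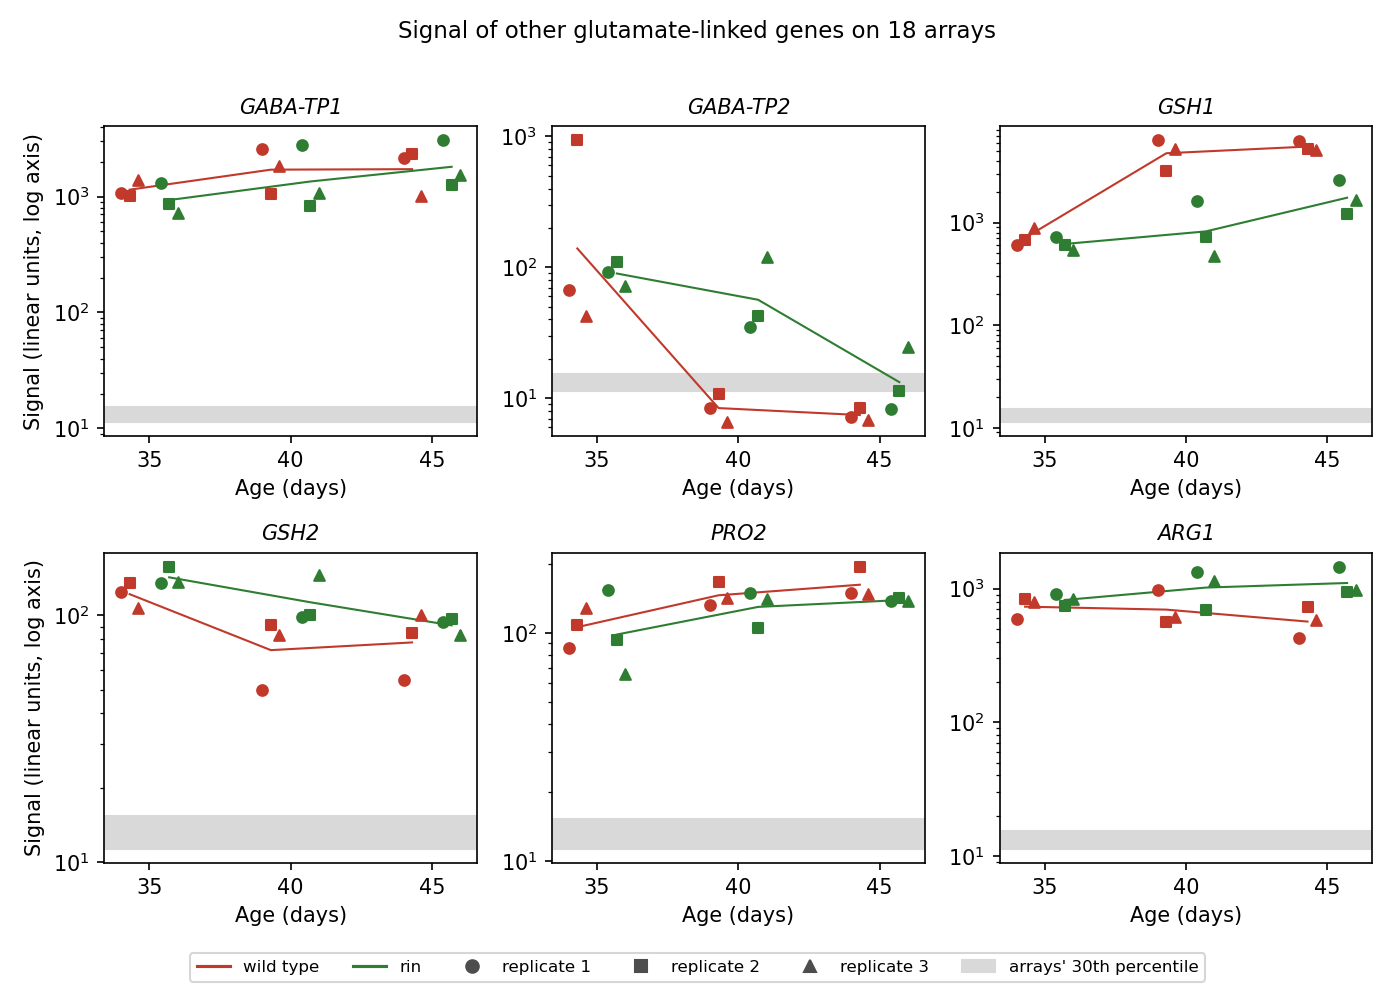
Signal of 6 other genes of glutamate-linked metabolism on each array (log axis, linear signal units) against age in days, drawn with the same colours, symbols and grey band as for the 5 genes. GSH1 is the gene whose wild-type points lie above rin at 40 and 45 days, and GABA-TP2 is dim in wild type from 40 days on.

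Likeness between patterns was measured as the root mean square difference of log2 signals over the 18 arrays, after each probe set was centred and scaled to unit SD, so that 0 means the same pattern. Among the 5 genes it ran from 0.581 between gad2 and yfe37 to 0.938 between yfe37 and GABA-TP3. Of 634 other named genes, those closest to gad2 were LOC543968 (0.424), the fructokinase gene FRK2 (0.446) and the alpha-galactosidase gene AGAL (0.446). Closest to yfe37 were LOC778302 (0.332) and the xyloglucan-modifying cell wall genes XTH16 (0.355) and XTH1 (0.385). Closest to GABA-TP3 were the glyoxalase gene GLX1 (0.392), LOC543645 (0.404) and LOC543809 (0.412). Closest to GS2 were LOC544217 (0.409), mdh (0.479) and TFT6 (0.5), and closest to gdh1 were TFT6 (0.555), LOC544138 (0.651) and the metallothionein gene MTA (0.653). These are descriptions of the same 18 arrays, and 2 genes that both fall in wild type are alike in this measure.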

How the data were processed

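Arrays were summarised with GCOS, whose version is missing from the submitters' processing notes. The deposited values are linear signal intensities, 1 for each probe set on each array, with similar trimmed means on all arrays. Which scaling they had received before was not tested. The values were transformed to log2 with no further scaling. Of 10209 probe sets, 171 controls were left out, as were 2324 that exceeded their array's 30th percentile on fewer than 3 arrays, which left 7714. One mean per group was fitted over all 18 arrays with limma 3.58.1 in R 4.3.3 (lmFit, and eBayes with a trend). Tests were two-sided, and p-values were adjusted by Benjamini-Hochberg over the tested probe sets in each of 12 comparisons. A call means an adjusted p under 0.05. Folds compare geometric means, and the bounds given as "at least" hold dim signals of the dimmer group at the percentile. The p-values beside those bounds come from the fit to the signals as measured. The procedure was tested on simulated data. The number of arrays limits the precision.

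The annotation, dated 2007, names 909 probe sets, of which 885 matched RefSeq, and 635 named genes were tested. A gene with several probe sets was represented by its brightest. The genes and lists were chosen with earlier results of these data known. The text names the 5 genes, the 3 named genes most like each, RIN as the check of the genotype, and the listed pathway genes called in any comparison. GABA-TP1, PRO1, PRO2, PG2 and the chloroplast and cuticle genes were named after their values were seen. Same-numbered replicates were not treated as pairs: the second codes in the titles match the numbers for most rin replicates but in wild type for replicate 3 at 40 and 45 days alone, and deviations of same-numbered arrays correlated between -0.17 and 0.48. Alternatives are given in the closing section.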

Additional observations from a re-analysis of the deposited data

Results flagged for a closer look

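A test of the difference between genotypes in the change with age singled out 3 of the 5 genes. Of all tested probe sets it called 3.81% for 40 to 45 days and 13.2% for 35 to 45 days. For the change from 40 to 45 days the change in rin exceeded that in wild type by 3.76 on the log2 scale for GS2 (adjusted p = 0.0368) and by 1.79 for GABA-TP3 (adjusted p = 0.0282). For the change from 35 to 45 days it exceeded it by 3.64 for GS2 (adjusted p = 0.0177), 2.81 for GABA-TP3 (adjusted p = 0.000491) and 7.07 for gad2 (adjusted p = 0.00238). GABA-TP3 is the only one of these whose signals were above the dim range in every group. The GS2 call from 40 to 45 days was lost in 9 of the 12 fits that left out 1 array. Its call from 35 to 45 days was lost with dim signals raised (adjusted p = 0.0858) and with 32 added before log2 (adjusted p = 0.182). The call for GABA-TP3 from 40 to 45 days was lost without replicate 3 of either genotype at 40 days (adjusted p = 0.0694 in wild type and 0.0618 in rin), without replicate 1 of wild type at 45 days (adjusted p = 0.0769) and without replicate 2 or 3 of rin at 45 days (adjusted p = 0.0755 and 0.084).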

How the results depend on the processing

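Of 1123 values of the 5 genes under an alternative, 1030 kept their direction and their side of the threshold, 48 lost a call, 16 gained one and 29 changed sign, 0 of them with a call in the alternative. Where a value changed, the cause was not tested. Of the 5 genes, the number called between genotypes at 40 days went from 0 to 1 with quantile normalization, with 32 added before log2 and with a 50th percentile filter, and to 2 without both arrays that stood apart (replicate 2 of wild type at 35 days and replicate 1 of rin at 40 days, an alternative added after seeing the data, as was raising dim signals). At 45 days it went from 4 to 2 with 32 added. For rin at 45 against 35 days it went from 1 to 0 with no filter, with only the arrays compared, and with replicates 2 and 3 of rin at 45 days averaged, and for rin at 45 against 40 days from 0 to 1 without both arrays. For the interaction from 35 to 40 days it went from 0 to 1 with the replicate block (gad2, adjusted p = 0.0472) and without both arrays, and the block changed no other call of the 5 genes. With the second title code as a random block (estimated correlation -0.024) no call of the 5 genes changed. For that from 40 to 45 days it went from 2 to 1 with 32 added, no filter or dim signals raised, and to 0 with only the arrays compared, the averaged replicates or both arrays out. Leaving out 1 array gave 0 to 2 genes for both of these interactions and for 40 days, and 0 to 1 for rin at 45 against 35 and against 40 days.

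Among all probe sets, 26 calls at 35 days became 16 with the 50th percentile filter, 7 with only the arrays compared and 20 to 226 with 1 array left out. At 40 days 2003 became 1075 (only the arrays compared) and 1234 to 1997 (1 array out). At 45 days 2179 became 1446 (averaged) and 1455 to 2196 (1 array out). In wild type from 40 to 45 days 641 became 298 (only the arrays compared) and 310 to 675 (1 array out). In rin from 35 to 40 days 2 became 1 (no filter, or both arrays out), 0 (50th percentile, or only the arrays compared) and 1 to 646 (1 array out). From 40 to 45 days 28 became 11 (no filter), 0 (only the arrays compared, or averaged), 16 (dim raised), 297 (both arrays out) and 0 to 292 (1 array out). From 35 to 45 days 873 became 394 (only the arrays compared), 292 (averaged) and 267 to 1755 (1 array out). Interactions went from 723 to 417 (only the arrays compared) and 410 to 1124 (1 array out) for 35 to 40 days, from 294 to 165, 89 (averaged) and 92 to 364 for 40 to 45 days, and from 1018 to 665 (averaged) and 640 to 1389 for 35 to 45 days.

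Signs turned only for uncalled values. In rin from 35 to 40 days gdh1 (0.03 on the log2 scale) became -0.08 with quantile normalization, -0.03 with median centring, -0.06 with 32 added, -0.11 with dim signals raised, and -0.75 to 0.60 with 1 array out, GS2 (0.04) -0.02 with median centring and -0.36 to 0.47, and gad2 (-0.34) 0.27 without both arrays and -0.69 to 0.27. Without both arrays yfe37 at 35 days (-0.67) became 0.08 and the GS2 interaction from 35 to 40 days (-0.12) 0.21. With 1 array out these ran from -1.54 to 0.26 and from -1.13 to 0.54, GS2 in wild type from 35 to 40 days from -0.49 to 1.17, gdh1 in rin from -1.01 to 0.34 (35 to 45 days) and from -0.65 to 0.11 (40 to 45 days), its interaction from 35 to 40 days from -0.49 to 0.86, and the yfe37 interaction from 40 to 45 days from -3.50 to 0.82. Matching the pathway list by gene descriptions was not run, as the tables used hold none. Signals near the 30th percentile limit gdh1 throughout, gad2 and GS2 in red-ripe fruit, and yfe37 in both genotypes at 40 and 45 days.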

Other observations

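Replicate 2 of wild type at 35 days had 21.6 and 14.7 times the gad2 signal of replicates 1 and 3, 13.8 and 21.8 times their GABA-TP2 signal, and 4.12 and 5.46 times their yfe37 signal. For GABA-TP3 the same ratios were 0.899 and 0.92, for GS2 1.43 and 0.659, and for gdh1 0.998 and 2.61. The arginase gene ARG2, brightest probe set, also read highest there, at 4437 against 386.1 and 515. By the measure of likeness over the 18 arrays GABA-TP2 ranked 20 among 634 named genes for gad2, 24 for yfe37, 128 for GS2, 138 for gdh1 and 162 for GABA-TP3. These values were chosen after the data were seen.

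In each of the 3 rin groups replicate 1 had the lowest signal of gad2, yfe37 and GABA-TP3, and the highest of GSH1. Its title carries the same second code at 35 and 40 days and another at 45 days.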
